A study of Homo sapiens with 6 samples.

Results

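A group of 9 genes that respond to, or carry, signals of transforming growth factor beta (TGF-beta) and bone morphogenetic protein (BMP) was followed in H1299 cells, an established line from a human lung carcinoma of the non-small cell type. The genes were taken by symbol: TGFB1, TGFB2, TGFBI, ID1, ID2, ID3, SMAD6, SMAD7 and SKIL. All 9 were found among the 19201 entries of the count table, and all 9 passed the low-count filter that left 19101 entries for testing. RNA-seq counts were available from 3 libraries of cells that overexpress lncBCAS1-4_1, a long non-coding RNA (OE), and from 3 libraries of wild-type cells (Ctrl). The labels name no vector or empty-vector control, no clone and no added ligand or drug, so an effect of the overexpression procedure and an effect of the RNA cannot be told apart. No entry with the name of the overexpressed RNA was analysed here.

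TGF-beta and BMP ligands bind paired type I and type II serine/threonine kinase receptors, which phosphorylate receptor-regulated SMAD proteins. SMAD2 and SMAD3 mostly carry TGF-beta and activin signals, SMAD1, SMAD5 and SMAD9 carry BMP signals, and SMAD4 joins both. The complexes switch on their own inhibitors, SMAD6, SMAD7 and SKIL, while the ID genes are classic early targets of BMP and TGFBI is a matrix protein named for its induction by TGF-beta. In epithelial cancers the pathway is known for growth arrest at first and for mesenchymal change and invasion later.

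Of the 9 genes, 7 were higher in the OE libraries at an adjusted p under 0.05 (edgeR quasi-likelihood test with Benjamini-Hochberg adjustment over all 19101 entries), and none was lower. No gene was lower at an unadjusted p under 0.05 either, nor by DESeq2 or limma-voom. Over all entries 18.3% were called higher and 19.7% lower by the same rule, 38.0% in all. The rises were modest, and SMAD6 alone was past 2-fold, the size that the study's own criterion asks for. The median log2 fold change was 0.66 over the 9 genes and -0.0041 over all entries.

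Fold changes in these libraries follow the GC content of the transcripts, with a Spearman correlation of 0.72 across 10069 entries with a mean log2 level above 3, which are not independent replicates. Each value is therefore given as fitted and again after GC content and length of the transcript were corrected for, library by library. What makes the trend was not tested. After the correction 7 genes were again higher, where 10.7% of all entries were higher and 22.3% were called in either direction, and none was lower (none at an unadjusted p either). The median log2 fold change was then 0.48 over the 9 genes and -0.016 over all entries. The 2 sets of 7 share 5 genes: TGFBI, ID1, ID2, ID3 and SMAD6. TGFB1 and SMAD7 passed only as fitted, and TGFB2 and SKIL passed only after the correction. Because the 9 genes were chosen with earlier results of these data known, their counts describe them and are no independent evidence for the pathway.

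The 250 bases before the transcription start of the 5 genes that were higher under both fits are shown. Whether these genes share a regulator was not tested. The sequences are the sense strand, 5′ to 3′, from RefSeq (GRCh38.p14), where all 9 genes were matched. The RefSeq start can lie inside the GENCODE gene, as for ID2. Capitals mark letters of SMAD-binding motifs searched on both strands: the palindrome GTCTAGAC, the CAGA box CAGAC and the GC-rich element GGCGCC.
SMAD6, chr15:66701986-66702235, plus strand: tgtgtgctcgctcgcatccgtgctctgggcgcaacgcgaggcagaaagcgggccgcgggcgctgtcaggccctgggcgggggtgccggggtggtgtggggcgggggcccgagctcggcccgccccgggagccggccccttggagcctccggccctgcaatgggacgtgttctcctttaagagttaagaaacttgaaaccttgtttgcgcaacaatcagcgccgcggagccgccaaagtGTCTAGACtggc
TGFBI, chr5:136028738-136028987, plus strand: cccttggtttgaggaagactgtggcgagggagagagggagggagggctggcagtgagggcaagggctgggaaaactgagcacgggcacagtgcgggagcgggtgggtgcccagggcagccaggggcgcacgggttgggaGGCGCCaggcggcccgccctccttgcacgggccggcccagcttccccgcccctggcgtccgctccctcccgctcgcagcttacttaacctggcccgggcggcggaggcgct
ID1, chr20:31605039-31605288, plus strand: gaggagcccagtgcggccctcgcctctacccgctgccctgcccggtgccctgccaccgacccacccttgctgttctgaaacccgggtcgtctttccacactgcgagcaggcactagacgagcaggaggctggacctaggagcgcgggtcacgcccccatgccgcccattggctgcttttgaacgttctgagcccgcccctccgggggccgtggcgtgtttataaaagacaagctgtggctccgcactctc
ID2, chr2:8681806-8682055, plus strand: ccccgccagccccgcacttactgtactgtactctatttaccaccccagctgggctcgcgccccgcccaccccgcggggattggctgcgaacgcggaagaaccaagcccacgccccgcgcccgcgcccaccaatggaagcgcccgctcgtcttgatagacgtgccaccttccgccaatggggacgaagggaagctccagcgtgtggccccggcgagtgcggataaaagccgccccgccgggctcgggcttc
ID3, chr1:23559502-23559751, minus strand: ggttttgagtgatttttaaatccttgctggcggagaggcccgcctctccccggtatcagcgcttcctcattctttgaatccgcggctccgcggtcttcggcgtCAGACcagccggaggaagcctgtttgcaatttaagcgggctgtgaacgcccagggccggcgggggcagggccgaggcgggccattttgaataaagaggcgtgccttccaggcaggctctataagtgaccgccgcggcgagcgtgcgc

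Within the windows searched, 1 per gene, SMAD6 was the only one of the 9 with the full palindrome. Its first base lies 12 bases before the start, and 0.182% of 35116 promoter windows of the same length hold it. TGFBI held 1 GC-rich element and ID3 held 1 CAGA box, which are found in 16.4% and 38.0% of all windows. ID1 and ID2 held none of the 3 motifs within this window, which says nothing about sites farther away. No 2 of these matches overlapped. Among the other 4 genes, TGFB2 and SMAD7 held 2 CAGA boxes each, SKIL held 1 CAGA box and 1 GC-rich element, and TGFB1 held none. SMAD7 has 3 RefSeq starts, and only the window before 1 of them was searched, so motifs near its other starts were not looked for. A match describes letters and is not evidence of binding.

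Total counts per library ranged from 84531039 to 90102655 in OE and from 87393887 to 92780032 in Ctrl. Levels are given as CPM, counts scaled to a common library total with TMM factors. The relative counting error (1 over the square root of the count) in the library with the fewest counts ran from 0.611% for TGFB1 to 5.5% for SMAD6, and the coefficients of variation between libraries of a group ran from 0.539% to 17.8% over the 9 genes. Whether the libraries of a group came from separate cultures is not labelled. The p-values therefore rest on the spread among these samples alone, and that spread may be technical. The epithelial keratins KRT8, KRT18 and KRT7 summed to 1677 to 1891 CPM in OE and 1261 to 1428 CPM in Ctrl. KRT7 gave little of that sum (4.39 to 5.90 CPM in OE, 2.64 to 2.98 CPM in Ctrl). The epithelial marker EPCAM was absent from the count table. Of the lung epithelial markers, NKX2-1 was at 0.26 to 0.60 CPM in OE and 0.52 to 0.78 CPM in Ctrl. SFTPB, SFTPC and NAPSA were absent from the count table. Of the marker lists of other cells, the 2 fibroblast and 3 endothelial genes measured summed to at most 2.47 CPM in any library, and of the leukocyte list CD68, which other cells also express, was at 79.3 to 87.8 CPM in OE and 69.6 to 73.9 CPM in Ctrl. In bulk RNA, a smaller share of cells and less RNA per cell cannot be told apart.

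**Figure D1:**
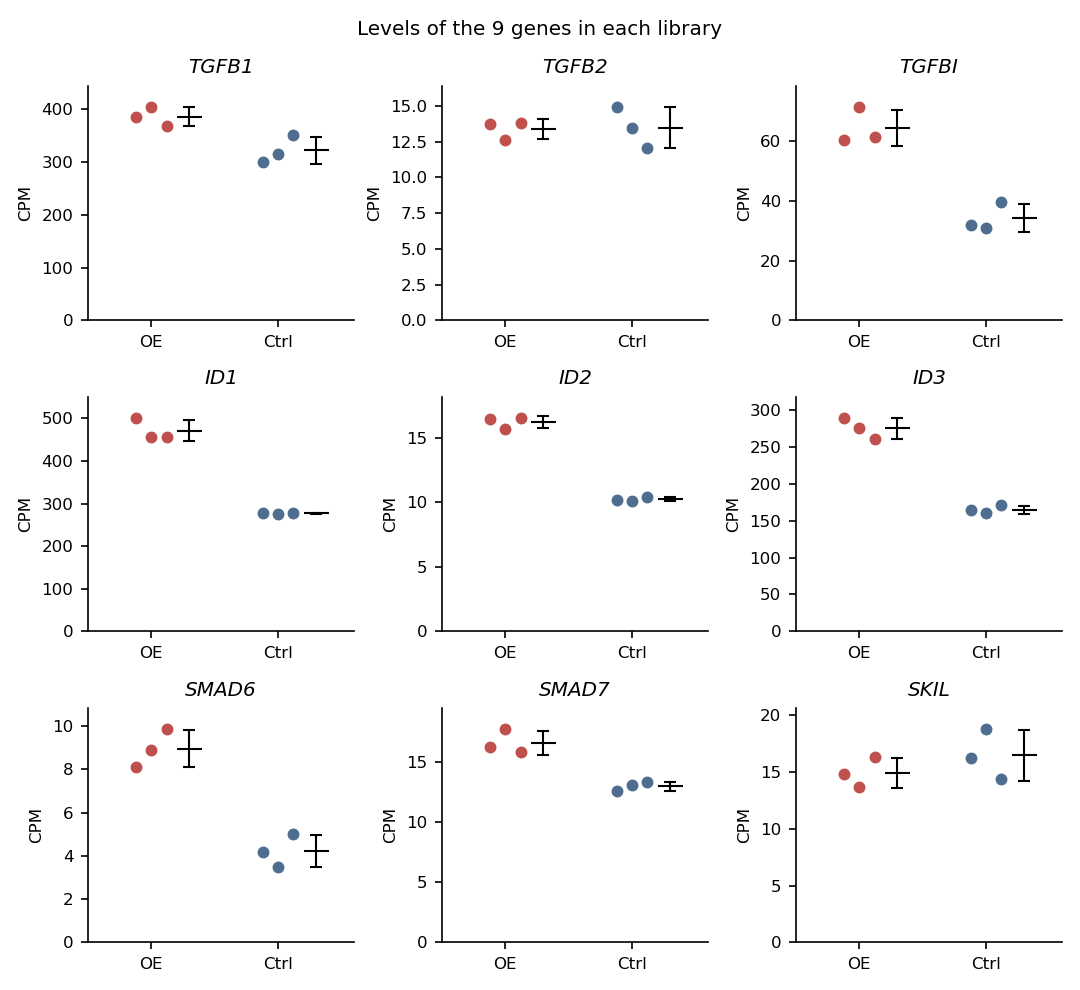
Levels of the 9 genes in CPM, on linear axes that start at 0, in each OE library (red) and each Ctrl library (blue), with the group mean and SD (n = 3 each) beside the points. The groups do not overlap for 7 genes, all higher in OE, and overlap for TGFB2 and SKIL.

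The ID genes encode small helix-loop-helix proteins without a DNA-binding region, which pair with E proteins and keep them off DNA. All 3 rose under both fits, ID2 by more than ID1 and ID3 after the correction (95% intervals 0.61 to 0.98, 0.39 to 0.57 and 0.40 to 0.55 on the log2 scale), a difference between genes that was not tested. ID1 had 500.0, 456 and 457 CPM in OE libraries 1 to 3, against 278, 275 and 277 CPM in Ctrl libraries 1 to 3. The lowest OE value lay far above the highest Ctrl value, and the Ctrl libraries were almost identical. The rise was 1.70-fold (log2 fold change 0.77, SE 0.05, adjusted p = 2.4e-05 by edgeR) and 1.40-fold after the correction (0.48, SE 0.04, adjusted p = 8.2e-05). ID1 (ENSG00000125968) is a short gene on the plus strand of chromosome 20 (GRCh38, 31605283 to 31606515).

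ID3 had 289, 276 and 260 CPM in OE, against 164, 160 and 171 CPM in Ctrl. The groups were again well apart. ID3 (ENSG00000117318; chromosome 1, 23557926 to 23559501, minus strand) rose 1.67-fold (log2 fold change 0.74, SE 0.05, adjusted p = 3.6e-05 by edgeR), and 1.39-fold after the correction (0.48, SE 0.03, adjusted p = 3.4e-05). ID1 and ID3 kept their proportion to each other. The ratio of ID1 to ID3 counts was 1.73, 1.65 and 1.75 in OE and 1.70, 1.72 and 1.63 in Ctrl, so the groups overlapped. Their transcripts have near-equal GC content, 57.9% and 56.7%, and length, 983 and 950 bases.

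ID2 was much less abundant, with 16.5, 15.6 and 16.5 CPM in OE and 10.1, 10.1 and 10.4 CPM in Ctrl. Every OE library was above every Ctrl library. ID2 (ENSG00000115738; chromosome 2, 8678845 to 8684461, plus strand) rose 1.58-fold (log2 fold change 0.66, SE 0.08, adjusted p = 0.00050 by edgeR). Its transcript is poorer in GC, at 42.5%, where the median entry was lower in OE (log2 fold change -0.28 over 1776 entries at 40 to 44% GC). After the correction ID2 was up 1.73-fold (0.79, SE 0.08, adjusted p = 0.00031). ID2 shares 145 of its 2213 exonic bases with the antisense gene ID2-AS1, which had 82 to 143 counts per library against 904 to 1483 for ID2. The strand setting of the counting is not given in the sources used here.

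Per kilobase of the canonical transcript, ID1 was the most abundant of the 9 genes and ID3 the second in both groups, at 479 ± 26 and 289 ± 15 CPM per kb in OE and 282 ± 2 and 174 ± 6 CPM per kb in Ctrl (SD, n = 3 each). ID2 stood at 12.5 ± 0.4 CPM per kb in OE and 7.88 ± 0.13 in Ctrl. ID4, the remaining family member, was near the low end of detection with 1.5, 1.15 and 2.09 CPM in OE and 0.583, 0.824 and 0.590 CPM in Ctrl. It too was higher in OE (2.37-fold, adjusted p = 0.0070 by edgeR; corrected log2 fold change 1.49, adjusted p = 0.0037). ID1 made up 61.3 ± 0.7% of the summed ID1 to ID4 level per kb in OE and 60.8 ± 0.7% in Ctrl, so the make-up of the family was nearly the same while its sum was higher.

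E proteins, the partners that ID proteins hold, were lower in OE as fitted. Of 7 helix-loop-helix partners tested, 3 were lower and 1 higher, while the corrected fit by edgeR called 2 lower and no gene higher (1 at an unadjusted p under 0.05). Over all entries 19.7% were lower and 18.3% higher as fitted, and 11.6% and 10.7% after the correction. TCF12, with a log2 fold change of -0.70 (adjusted p = 0.00012 by edgeR), was at 41.6, 43.8 and 47.5 CPM in OE and 73.3, 73.5 and 68.8 CPM in Ctrl, and its corrected value was -0.34 (adjusted p = 0.00050). TCF3, which encodes E12 and E47, fell by 0.21 as fitted and by 0.43 after the correction (adjusted p = 0.0020 and 0.00024). TCF4 fell by 0.46 as fitted (adjusted p = 0.0018) but stood at -0.02 after the correction (adjusted p = 0.90). The sum of ID1 to ID4 per kb was 781 ± 39 in OE and 463 ± 7 in Ctrl, and the sum of TCF3, TCF4 and TCF12 was 47.7 ± 0.6 in OE and 58.8 ± 0.7 in Ctrl (CPM per kb, SD, n = 3 each). The ratio of the sums was 17.6, 16.0 and 15.6 in OE and 7.94, 7.66 and 8.05 in Ctrl. Corrected, it was 16.3, 15.2 and 14.9 in OE and 8.33, 8.24 and 8.59 in Ctrl. These sums were formed after the values were seen and carry no test. Of the other listed partners, the BMP and Notch target HEY1 was higher as fitted (log2 fold change 0.55, adjusted p = 0.038; corrected 0.53, adjusted p = 0.052), and that call was kept only when Ctrl replicate 2 was left out, being lost without any 1 of the other 5 libraries (adjusted p up to 0.12).

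**Figure D2:**
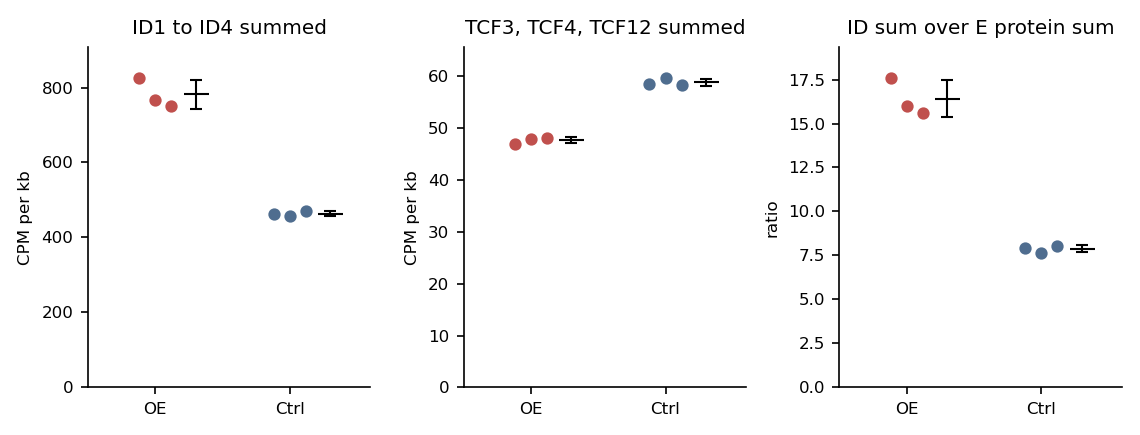
Summed level of ID1 to ID4 (left) and of the E protein genes TCF3, TCF4 and TCF12 (middle) in CPM per kb of canonical transcript, and the ratio of the sums (right), in each OE library (red) and each Ctrl library (blue) with mean and SD (n = 3 each). The ratio lies between 15.6 and 17.6 in OE and between 7.66 and 8.05 in Ctrl.

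The inhibitory SMADs block receptor-regulated SMADs, SMAD6 mainly in the BMP branch and SMAD7 in both. SMAD6 had the highest fold change of the 9 genes and one of the lowest levels. It stood at 8.13, 8.92 and 9.85 CPM in OE, against 4.17, 3.50 and 5.0 CPM in Ctrl, from counts of 686, 744 and 886 in OE and 372, 331 and 449 in Ctrl. The groups did not overlap, although the Ctrl libraries of SMAD6 had the widest relative spread of the 9 genes (coefficient of variation 17.8%). SMAD6 (ENSG00000137834; chromosome 15, 66702236 to 66782849, plus strand) rose 2.12-fold (log2 fold change 1.09, SE 0.15, adjusted p = 0.00078 by edgeR) and 1.82-fold after the correction (0.86, SE 0.15, adjusted p = 0.0033).

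SMAD7 differed less, at 16.2, 17.8 and 15.9 CPM in OE and 12.6, 13.1 and 13.3 CPM in Ctrl. The groups did not overlap, and SMAD7 (ENSG00000101665; chromosome 18, 48919853 to 48950965, minus strand) rose 1.28-fold as fitted (log2 fold change 0.35, SE 0.09, adjusted p = 0.010 by edgeR). After the correction the value was 0.12 (95% interval -0.05 to 0.29, adjusted p = 0.29), and the call was lost. The 1208 entries with 56 to 60% GC, the range that holds SMAD7, had a median of 0.25 and an upper quartile of 0.37, so the as-fitted value of SMAD7 lay just under that quartile. The ratio of SMAD6 to SMAD7 counts was 0.500, 0.502 and 0.620 in OE and 0.332, 0.267 and 0.374 in Ctrl, without overlap. Both transcripts have similar GC content, 58.8% and 57.0%. No test of that ratio was run.

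TGFBI encodes a secreted matrix protein that binds integrins and collagen. It had 60.3, 71.3 and 61.3 CPM in OE, against 32.0, 30.9 and 39.6 CPM in Ctrl. Every OE library was above every Ctrl library, with OE replicate 2 the highest and Ctrl replicate 3 the highest of its group. TGFBI (ENSG00000120708; chromosome 5, 136028988 to 136063818, plus strand) rose 1.88-fold (log2 fold change 0.91, SE 0.10, adjusted p = 0.00030 by edgeR), and 1.66-fold after the correction (0.74, SE 0.09, adjusted p = 0.00071). With a transcript GC content of 53.1% it lies where the median entry differed by 0.17.

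SKIL encodes SnoN, a corepressor that binds SMAD complexes and is both degraded and then induced by TGF-beta signalling. As fitted it did not differ, with 14.8, 13.7 and 16.3 CPM in OE and 16.3, 18.8 and 14.4 CPM in Ctrl, overlapping ranges (log2 fold change -0.14, SE 0.12, 95% interval -0.41 to 0.12, adjusted p = 0.39 by edgeR). Its transcript is the longest and the poorest in GC of the 9, at 7155 bases and 33.6% GC. The median entry at 32 to 36% GC had a log2 fold change of -0.42. After the correction SKIL was at 18.4, 17.9 and 18.0 CPM in OE and 13, 14.6 and 12.9 CPM in Ctrl, no longer overlapping, and was higher by 1.34-fold (log2 fold change 0.42, SE 0.08, adjusted p = 0.0052). With GC content alone corrected the value was 0.32 (adjusted p = 0.019). SKIL (ENSG00000136603; chromosome 3, 170357342 to 170396835, plus strand) is the gene among the 9 whose value moved most with the correction, and its direction rests on it.

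The ligands differed widely in level. TGFB1, the main TGF-beta ligand of epithelial tumours, was abundant, at 386, 404 and 368 CPM in OE and 300.02, 316 and 351 CPM in Ctrl. The groups did not overlap, and TGFB1 (ENSG00000105329; chromosome 19, 41301587 to 41353922, minus strand) rose 1.20-fold as fitted (log2 fold change 0.26, SE 0.06, adjusted p = 0.0090 by edgeR). Its transcript is the richest in GC of the 9, at 63.6%, and the median of entries at 60 to 64% GC was 0.28. Corrected, TGFB1 was at 340, 349 and 343 CPM in OE and 348, 362 and 373 CPM in Ctrl, and its value was -0.07 (95% interval -0.15 to 0.01, adjusted p = 0.23). TGFB1 shares 215 of its 3264 exonic bases with HNRNPUL1 on the other strand, an abundant gene with 121537 to 139997 counts per library, and without a known strand setting reads from that stretch cannot be assigned.

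TGFB2 was at 13.8, 12.6 and 13.8 CPM in OE and 14.9, 13.5 and 12 CPM in Ctrl, and the groups overlapped. Its log2 fold change was -0.01 (SE 0.10, 95% interval -0.25 to 0.23, adjusted p = 0.96 by edgeR). After the correction TGFB2 (ENSG00000092969; chromosome 1, 218345336 to 218444619, plus strand) was higher by 1.23-fold (0.30, SE 0.09, adjusted p = 0.044), a call lost when Ctrl replicate 2 or 3 or any OE replicate was left out (adjusted p of 0.07 to 0.13). With GC content alone corrected the value of TGFB2 was 0.22 and did not pass (adjusted p = 0.11). It overlaps TGFB2-AS1 and TGFB2-OT1, which had at most 34 counts in any library. TGFB3, the third isoform, was at 3.74, 5.34 and 5.11 CPM in OE and 3.69, 3.89 and 4.15 CPM in Ctrl and did not pass (log2 fold change 0.27, adjusted p = 0.22; corrected 0.17, adjusted p = 0.49). Per kb, TGFB1 was at 139 ± 6 in OE and 116 ± 9 in Ctrl, and TGFB2 at 2.28 ± 0.12 in OE and 2.29 ± 0.24 in Ctrl (CPM per kb, SD, n = 3 each). In this order of levels, TGFB2 and SMAD6 (2.34 ± 0.23) lay within 1 SD of each other in OE, and TGFB2 and SKIL (2.30 ± 0.31) did in Ctrl.

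**Figure D3:**
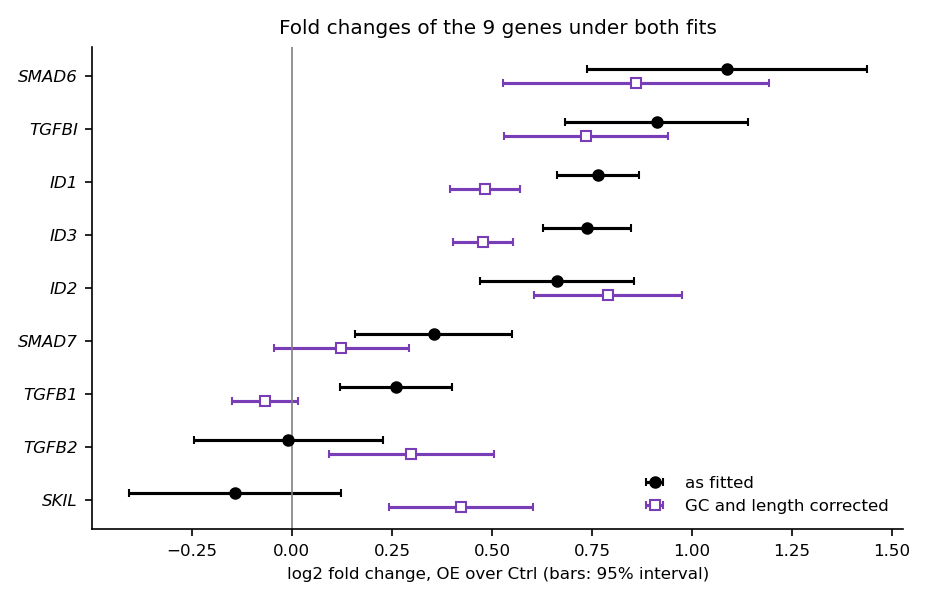
Log2 fold change of OE over Ctrl for each of the 9 genes, as fitted (filled circles) and after the GC and length correction (open squares), with 95% intervals from the edgeR fit. SMAD6, TGFBI and the ID genes lie above 0 under both fits, SMAD7 and TGFB1 reach 0 after the correction, and TGFB2 and SKIL leave it.

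**Figure D4:**
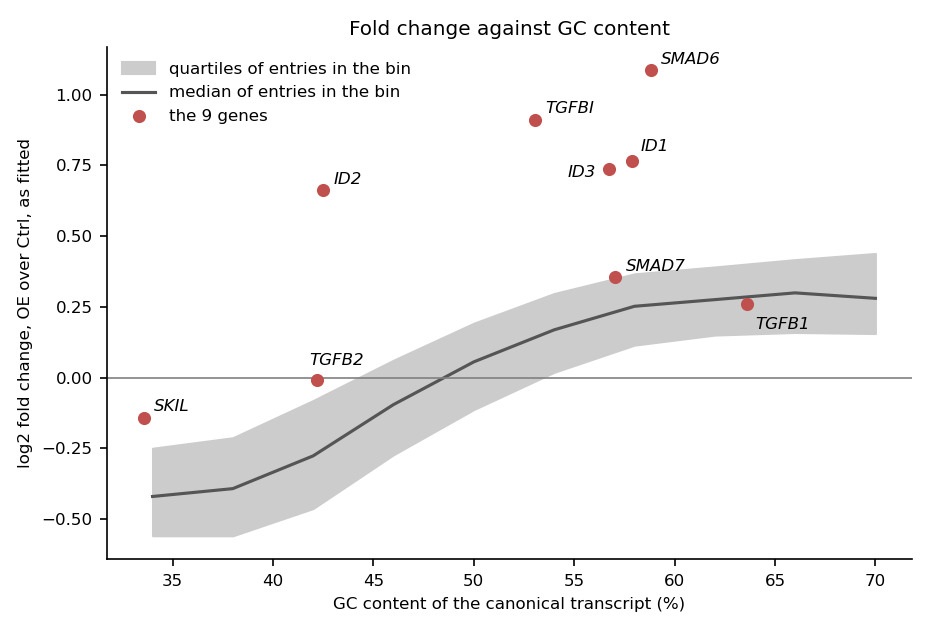
Log2 fold change as fitted against the GC content of the canonical transcript in percent, for the 9 genes (red points) over the median (line) and quartiles (grey band) of entries with a mean log2 CPM above 3, in bins of 4 percentage points. TGFB1 lies on the median line, and SMAD6, TGFBI, ID1, ID2 and ID3 lie well above the band, SKIL and TGFB2 lie just above it and SMAD7 lies at its upper edge.

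Across libraries, CPM of 7 of the 9 genes did not overlap between the groups, all higher in OE, where 24.7% of all entries do so in that direction. After the correction 8 of the 9 did not overlap, all higher in OE, against 18.6% of entries, and TGFB1 was the exception. The entries whose pattern over the 6 libraries was nearest to that of ID1 were HYI, TMEM134 and ID3, among 11226 entries with a symbol and a mean log2 CPM of at least 2 (root mean square difference 0.035, 0.039 and 0.039 on the log2 scale). For TGFBI they were AZIN2, ABCC3 and CLDN15 (0.044, 0.048 and 0.067).

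Several receptors and SMAD proteins, which act downstream of the ligands and upstream of the target genes, were lower as fitted. Of 15 receptors and co-receptors tested, 8 were lower as fitted and none higher (none at an unadjusted p under 0.05, by DESeq2 or by limma-voom), with a median log2 fold change of -0.36. BMPR1A, a type I BMP receptor, had 27.7, 29.6 and 30.6 CPM in OE and 42.4, 42.5 and 42.3 CPM in Ctrl (log2 fold change -0.53, adjusted p = 0.00029 by edgeR). TGFBR2, the TGF-beta type II receptor, had 33.4, 32.0 and 32.6 CPM in OE and 44.7, 45.1 and 45.2 CPM in Ctrl (-0.46, adjusted p = 0.00029). BMPR2 and TGFBR1 fell by 0.50 and 0.63 (adjusted p = 0.00046 and 0.00098). After the correction BMPR2 stood at -0.01, BMPR1A at -0.13 and TGFBR1 at -0.21, none of which passed. In all, 3 receptors were lower and none higher after the correction, with a median of -0.08. Over all entries 19.7% were lower and 18.3% higher as fitted, and 11.6% and 10.7% after the correction. TGFBR2 was still lower, at -0.36 (adjusted p = 0.0011). The co-receptors TGFBR3 (-0.26) and RGMB (-0.19), named after their values were seen, were the other 2 still lower (adjusted p = 0.019 and 0.046).

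None of the 6 receptor-regulated and common SMADs was higher as fitted by edgeR, DESeq2 or limma-voom, nor at an unadjusted p, and 3 were lower, while 1 was higher and 1 lower after the correction. Among all entries 18.3% were higher and 19.7% lower as fitted, and 10.7% and 11.6% after the correction. SMAD5, of the BMP branch, had 24.7, 21.6 and 26.5 CPM in OE and 39.3, 41.4 and 38.5 CPM in Ctrl (log2 fold change -0.71, adjusted p = 0.00034 by edgeR). Its corrected value was -0.23 (adjusted p = 0.017), a call lost without Ctrl replicate 2, Ctrl replicate 3 or OE replicate 2. SMAD4 fell by 0.49 as fitted (adjusted p = 0.00088) and was at -0.09 after the correction (adjusted p = 0.23). SMAD2 was lower as fitted (-0.28, adjusted p = 0.0038) and higher after the correction (0.22, adjusted p = 0.019), and the second call was lost without Ctrl replicate 1 or 2. Its canonical transcript has 34626 bases. With GC content alone corrected SMAD2 was at 0.013 (adjusted p = 0.87 by edgeR), so the higher call rests on the length part of the correction. SMAD1 (-0.26), SMAD3 (-0.11) and SMAD9 (-0.13) did not pass under either fit (adjusted p = 0.094, 0.24 and 0.56 as fitted).

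The list of SMAD corepressors and of proteins that set SMAD turnover had 3 of 19 genes besides SKIL higher and 11 lower as fitted, and 3 higher and 7 lower after the correction. The shares over all entries were 18.3% higher and 19.7% lower as fitted, and 10.7% and 11.6% after the correction. The corepressor TGIF1 had 57.3, 58.8 and 58.2 CPM in OE and 38.0, 38.3 and 38.4 CPM in Ctrl (log2 fold change 0.60, adjusted p = 5.9e-05 by edgeR; corrected 0.77, adjusted p = 1.3e-05). The deubiquitinase USP11 rose by 0.44 (corrected 0.21, adjusted p = 0.011, lost without Ctrl replicate 2). SMURF2, a ubiquitin ligase that partners with SMAD7 to degrade receptors, had 82.3, 85.8 and 92.1 CPM in OE and 139, 146 and 133 CPM in Ctrl. It fell by 0.68 as fitted and by 0.35 after the correction (adjusted p = 8.9e-05 and 0.00024). The related ligase WWP1 fell by 0.60 and 0.27, while USP9X, a deubiquitinase of SMAD4, fell by 0.54 as fitted and stood at -0.11 corrected (adjusted p = 0.10). WWP2 rose by 0.19 as fitted, lost without Ctrl replicate 2, and was at 0.01 after the correction.

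Genes known to be induced by TGF-beta were more often higher than lower. Without the 9 genes, 13 of 24 were higher and 3 lower as fitted, with a median of 0.29, and 12 were higher and 2 lower after the correction, with a median of 0.27. Among all entries 18.3% were higher and 19.7% lower as fitted, and 10.7% and 11.6% after the correction. JUNB, a subunit of AP-1, had 97.0, 107 and 96.0 CPM in OE and 49.2, 50.7 and 51.7 CPM in Ctrl (log2 fold change 0.99, adjusted p = 1.6e-05 by edgeR; corrected 0.62). GADD45B rose by 0.81 (corrected 0.51) and CCN2, a secreted matricellular protein, by 0.71 (corrected 0.55, adjusted p = 5.2e-05). HMGA2, a chromatin factor, had 546, 529 and 590 CPM in OE and 893, 934 and 883 CPM in Ctrl. It fell by 0.70 as fitted and by 0.51 after the correction (adjusted p = 4.8e-05 and 4.4e-05 by edgeR). PMEPA1, a membrane inhibitor induced by TGF-beta, was at 4.14, 5.32 and 3.90 CPM in OE and 4.63, 4.34 and 4.49 CPM in Ctrl and did not pass (log2 fold change -0.01, 95% interval -0.35 to 0.33, adjusted p = 0.96). The low ITGB6 (under 0.5 CPM in every library) had a log2 fold change of -1.32 as fitted (adjusted p = 0.038) that did not pass after the correction (adjusted p = 0.14).

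Genes known to be induced by BMP, again without the 9, had 6 of 14 higher and 1 lower as fitted, but 2 higher and none lower after the correction (no gene lower at an unadjusted p). The median was 0.49 as fitted and 0.19 corrected. Over all entries 18.3% were higher and 19.7% lower as fitted, and 10.7% and 11.6% after the correction. The corrected count of 2 higher among 14 lies near that share. The 2 that passed both times were ID4 and ATOH8, a helix-loop-helix factor. ATOH8 had 30.9, 28.9 and 27.6 CPM in OE and 18.8, 18.4 and 21.6 CPM in Ctrl (log2 fold change 0.57, adjusted p = 0.00093 by edgeR; corrected 0.44, adjusted p = 0.0021). GATA2 rose by 0.49 and RUNX2 fell by 0.38 as fitted, and neither passed after the correction (0.22 and -0.13). The RUNX2 call was also lost in 4 of the 6 fits without 1 library.

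**Figure D5:**
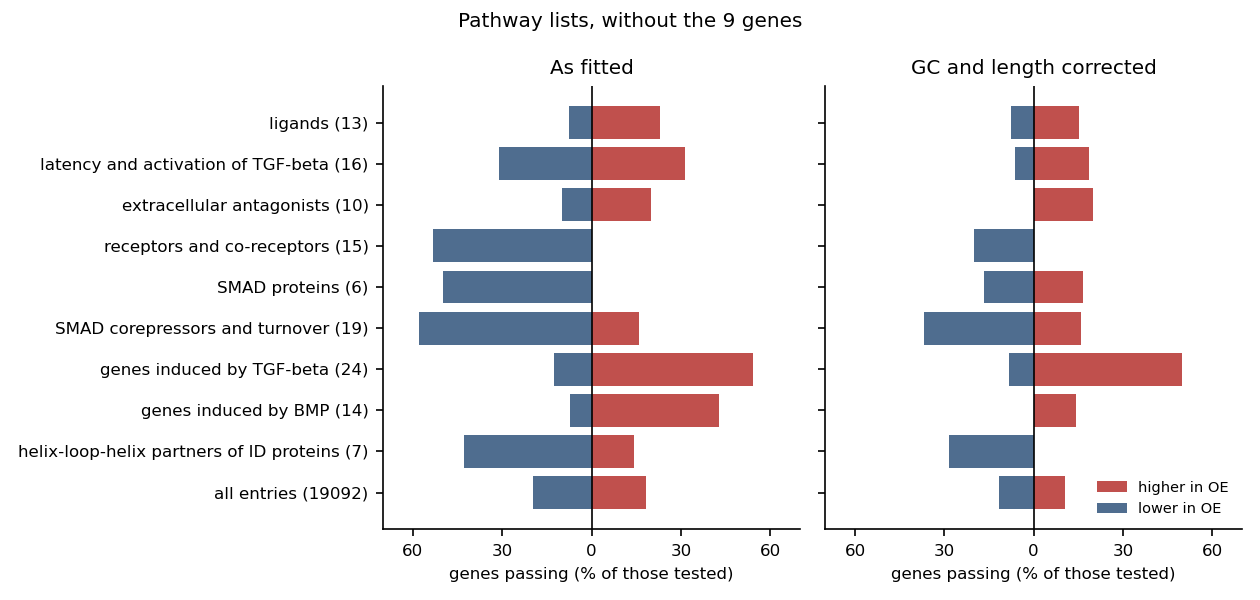
Share of tested genes in each list (number in brackets, the 9 genes left out) that were higher in OE (red, to the right) or lower in OE (blue, to the left) at an adjusted p under 0.05, in percent, as fitted (left panel) and after the GC and length correction (right panel), with all entries at the bottom. The lists of receptors, SMAD proteins and turnover lean to lower as fitted, and the genes induced by TGF-beta lean to higher in both panels.

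Other ligands and their handlers moved in both directions. Of 13 ligands besides TGFB1 and TGFB2, 3 were higher and 1 lower as fitted, and 2 and 1 after the correction. The shares over all entries were 18.3% higher and 19.7% lower as fitted, and 10.7% and 11.6% after the correction. The counts of higher ligands lie near these shares. The distant family member GDF15, a stress-induced cytokine, rose 2.66-fold (5.62, 5.61 and 4.25 CPM in OE and 1.33, 1.84 and 2.65 CPM in Ctrl, adjusted p = 0.0020 by edgeR; corrected log2 fold change 1.07). BMP8B rose 1.88-fold (adjusted p = 0.0019 by edgeR), with a corrected log2 fold change of 0.78 (1.71-fold). BMP6 fell by 0.34 (adjusted p = 0.017, lost without Ctrl replicate 1 or 2) and by 0.51 after the correction (adjusted p = 0.0033). AMH rose by 0.30 as fitted, kept only when OE replicate 3 was the library left out, and stood at 0.01 after the correction.

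Among 16 genes of TGF-beta latency and activation, 5 were higher and 5 lower as fitted, and 3 and 1 after the correction. Over all entries 18.3% were higher and 19.7% lower as fitted, and 10.7% and 11.6% after the correction. FURIN, the protease that cleaves TGF-beta precursors, had 139, 144 and 136 CPM in OE and 94.4, 93.2 and 107 CPM in Ctrl (log2 fold change 0.51, adjusted p = 0.00035 by edgeR; corrected 0.27, adjusted p = 0.0011). THBS1, which can activate the latent complex, rose by 0.35 (corrected 0.58) and the integrin subunit ITGB5 by 0.29 (corrected 0.17, adjusted p = 0.030, a call lost in 4 of the 6 fits without 1 library). FBN2, a microfibril protein, fell by 0.36 (corrected -0.18, adjusted p = 0.013, lost without Ctrl replicate 2). The integrin subunits ITGB1 and ITGAV fell by 0.27 and 0.42 as fitted and both stood at 0.03 after the correction. Of 10 extracellular antagonists, 2 were higher and 1 lower as fitted, and 2 higher and none lower after the correction (none at an unadjusted p). The 2 of 10 higher as fitted lie near the share over all entries. FSTL3, which binds activins, had 19.3, 19.4 and 17.3 CPM in OE and 11.4, 10.9 and 12.4 CPM in Ctrl (log2 fold change 0.69, adjusted p = 0.00063; corrected 0.35, adjusted p = 0.0098). FSTL1, named after its value was seen, was the other antagonist higher after the correction (0.22, adjusted p = 0.017), at -0.07 as fitted (adjusted p = 0.36). NBL1 rose by 0.28 and TWSG1 fell by 0.44 as fitted, and neither passed after the correction (-0.09 and -0.04). The NBL1 call was also lost in 4 of the 6 fits without 1 library.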

How the data were processed

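The authors deposited 1 table of unnormalized read counts, 19201 entries by 6 libraries, and every column matched a sample title. Per the labels' protocols, they used fastp for trimming, HISAT2 for alignment to GRCh38, StringTie for assembly and edgeR for testing. The sources used here do not give the versions, the kit, the strand setting or the counting step.

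Counts were tested with edgeR 4.0.16 (R 4.3.3): TMM scaling, filterByExpr (min.count 10, min.total.count 15), quasi-likelihood F-test, group as the only term, Benjamini-Hochberg over 19101 entries, threshold 0.05. The SE is the log2 fold change over the square root of F. The correction fitted natural splines (5 degrees of freedom) of each library's log2 CPM deviation (prior count 2) on GC content and log2 length of the canonical transcript in GENCODE 44 (available for 99.3% of entries), entered as offsets. Both fits were tested on simulated data. Alternatives included DESeq2 1.42.0 and limma 3.58.1 (voom), other scalings and filters, a replicate block and leaving out each library. No 2 libraries of a group looked like 1 deposited again (chi-square over its degrees of freedom 11.6 to 22.7).

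The members, the lists and the correction were chosen with earlier results of these data known. Named genes are the 9 members, up to 3 higher and 3 lower genes of each list by p, 15 fixed pathway genes and the 3 entries nearest to ID1 and to TGFBI, with exceptions marked. One gene that this rule names is not reported here. The motifs and the ID to E protein ratio were added later.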

Additional observations from a re-analysis of the deposited data

How the results depend on the processing

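TGFBI, ID1, ID2, ID3 and SMAD6 kept their direction and passed in every fit tried, apart from the 2-fold filter. Only SMAD6 met that filter as fitted (2.12-fold), and it stood at 1.82-fold after the correction. SMAD7 and TGFB1 lost their calls in every corrected fit. Over all entries 3496 were higher and 3754 lower as fitted, against 2041 and 2223 with the GC and length correction, 2202 higher with GC content alone corrected (chosen after seeing the data) and 255 and 148 past 2-fold. Pathway genes numbered 37 higher and 35 lower as fitted, 17 lower with the correction, 23 lower with GC content alone, and 4 higher and 2 lower past 2-fold, where 1 of the 9 genes was left. With GC content alone corrected 6 of the 9 genes were higher, TGFB2 having an adjusted p of 0.11 by edgeR.

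The replicate numbers gave no sign of pairing (correlations of same-numbered deviations -0.0735, -0.262 and -0.438), though 3 libraries per group cannot settle it. With the replicate number as a block, 7 of the 9 genes were still higher, and 2681 entries were higher and 3014 lower. The block with the correction gave 1516 and 1640 entries, 15 lower pathway genes and 6 of the 9 genes higher, TGFB2 having an adjusted p of 0.066.

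Reversed under the correction, without and with the block, were SKIL (0.42 and 0.43), TGFB1 (-0.067 both), TGFB2 (0.30 both), SMAD2 (0.22 both), SMAD9 (0.14 and 0.15), NBL1 (-0.087 and -0.085), ITGB1 (0.025 and 0.026) and ITGAV (0.026 and 0.024). GC content alone reversed SKIL (0.32), TGFB1 (-0.049), TGFB2 (0.22), SMAD2 (0.013), SMAD9 (0.066), NBL1 (-0.032), ITGB1 (0.042) and WWP2 (-0.054). DESeq2 gave TGFB2 5.5e-05. The cause was not tested.

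Leaving out each library, as fitted and corrected, gave 1328 to 3439 entries higher and 1357 to 3730 lower, 24 to 36 pathway genes higher and 12 to 34 lower, and 6 to 7 of the 9 genes higher. As fitted, no single library moved these counts by over 1.5 times. With the correction the entries higher were fewest without Ctrl replicate 2 (1328), at 1365 without Ctrl replicate 1 and 1543 to 1838 without any 1 of the others. The log2 fold changes spanned -0.23 to 0.48 for SKIL, -0.092 to 0.33 for TGFB1, -0.084 to 0.37 for TGFB2, -0.31 to 0.27 for SMAD2, -0.26 to 0.22 for SMAD9, -0.24 to 0.074 for PMEPA1, -0.15 to 0.37 for NBL1, -0.31 to 0.058 for ITGB1, -0.54 to 0.067 for ITGAV, -0.019 to 0.21 for WWP2, -0.082 to 0.34 for AMH, -0.50 to 0.011 for TCF4 and -0.51 to 0.0030 for TWSG1. The corrected fits without 1 library were added after seeing the data. At under 1 CPM, as for ID4 and ITGB6 in Ctrl, values rest on few counts.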
